A study of Mus musculus with 14 samples.

Results

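Genes that mark mature granule cells of the dentate gyrus were followed in hippocampal RNA-seq: Prox1, Calb1, Dsp, C1ql2, Tdo2, Trpc6, Dock10 and Plk5. These 8 were chosen by name, with earlier results of these data known, from the 18672 genes with a value in any library. Each had a value in all 14 libraries. The tissue was hippocampus from 30-day-old C57BL6 mice. Wild-type mice (KMT2D+/+) and heterozygotes for the bGeo allele (KMT2D+/bGeo, called mutants here) received either vehicle (methylcellulose) or TAK-418 by gavage. TAK-418 was given at 1 mg/kg/day for 2 weeks, starting at 2 weeks of age. The groups held 3 vehicle-treated wild types, 3 vehicle-treated mutants, 5 TAK-418-treated wild types and 3 TAK-418-treated mutants. The series' design text states 3 to 4 mice a group, whereas the labels put 5 libraries in the treated wild types, and all 5 were used. Replicate numbers are not in the labels and follow the order of deposit within each group. The labels name no sex, litter or library batch, and do not state that each library is 1 animal. P-values therefore measure the spread between these libraries.

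Granule cells are the principal excitatory neurons of the dentate gyrus, and the part of the hippocampal circuit that keeps receiving newborn neurons after birth. Their precursors pass through a doublecortin-positive and then a calretinin-positive stage, and calbindin appears as the cells mature. Prox1 is the homeobox transcription factor that sets and maintains granule cell identity. KMT2D, the gene affected in most people with Kabuki syndrome, adds methyl groups to lysine 4 of histone H3. LSD1, encoded by Kdm1a and inhibited by TAK-418, removes them. The comparisons ask whether these genes differed between genotypes and whether they moved with the inhibitor.

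Levels are given as scaled abundance: the abundances of a gene's assembled transcripts in a library, on an FPKM scale (fragments per kilobase of transcript and 1e+06 fragments), summed and divided by a library factor between 0.849 and 1.07. Depth relative to 1 fragment, recovered from the steps between low abundances, was 167 M fragments for replicate 1 of the treated wild types and 35.1 to 59.8 M for the other 13 libraries. Replicates 2, 4 and 5 of the treated wild types had 86.3% to 90.1% of their transcripts assigned to a gene. Vehicle wild type replicate 3 had 87.2%, and all remaining libraries 78.1% to 82.9%. The part these differences play in the TAK-418 changes of wild types was not tested. Kmt2d, the targeted gene, read 13.8 to 14.2 in the 3 wild types on vehicle. Its mean was 11.9 ± 2.14 (SD, n = 3) in mutants on vehicle, 15.2 ± 2.37 (n = 5) in treated wild types and 12.4 ± 2.73 (n = 3) in treated mutants. The mutants were lower by a log2 change of -0.26 ± 0.11 (SE) averaged over treatments, with the 2 genotypes overlapping (limma adjusted p = 0.846). Kdm1a stayed between means of 32.7 and 34.6 in all 4 groups. Choroid plexus genes, a list of 7, summed to 7210 in wild type vehicle replicate 3 and 5808 in mutant vehicle replicate 1, against 82.3 to 1092 in the other 12 libraries. Both libraries are vehicle, so the TAK-418 change averaged over genotypes is also given without them. Xist was listed in 2 of 3 vehicle wild types, 1 of 3 vehicle mutants, 2 of 5 treated wild types and 1 of 3 treated mutants.

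In the GRCm38 assembly with the GENCODE M21 annotation, all members are protein-coding genes. C1ql2 lies at chr1:120340582-120343174 on the plus strand. Prox1 lies at chr1:190118035-190170714 and Dock10 at chr1:80501073-80758527, both on the minus strand. Tdo2 lies at chr3:81957090-81976202 on the minus strand. Calb1 lies at chr4:15881264-15908064, Trpc6 at chr9:8544142-8680741, Plk5 at chr10:80356459-80365489 and Dsp at chr13:38151294-38198577, all on the plus strand.

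C1ql2, Dsp and Prox1 had the 3 smallest p-values among the members in treated against vehicle wild types. The 250 bases before their first RefSeq starts (GRCm38.p6) are therefore printed, 5′ to 3′ on the gene's strand, with every CG dinucleotide in capitals. The windows are chr1:120340332-120340581 (plus strand) for C1ql2, chr13:38151044-38151293 (plus strand) for Dsp and chr1:190170828-190171077 (minus strand) for Prox1.
C1ql2: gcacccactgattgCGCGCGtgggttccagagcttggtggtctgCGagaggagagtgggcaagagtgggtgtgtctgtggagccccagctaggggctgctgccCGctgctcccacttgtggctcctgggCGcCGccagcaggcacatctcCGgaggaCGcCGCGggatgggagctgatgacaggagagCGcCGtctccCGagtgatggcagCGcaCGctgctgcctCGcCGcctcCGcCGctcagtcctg
Dsp: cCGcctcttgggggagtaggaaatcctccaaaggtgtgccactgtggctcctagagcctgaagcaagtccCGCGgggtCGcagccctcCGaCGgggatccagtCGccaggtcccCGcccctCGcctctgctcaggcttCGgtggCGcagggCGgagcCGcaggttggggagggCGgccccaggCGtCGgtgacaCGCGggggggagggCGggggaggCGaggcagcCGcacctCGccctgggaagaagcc
Prox1: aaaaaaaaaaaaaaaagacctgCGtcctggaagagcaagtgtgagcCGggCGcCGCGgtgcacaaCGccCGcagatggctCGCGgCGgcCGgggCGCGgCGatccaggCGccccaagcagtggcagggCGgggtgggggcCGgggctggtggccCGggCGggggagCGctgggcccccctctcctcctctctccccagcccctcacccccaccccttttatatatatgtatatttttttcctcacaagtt
The number of CG was 20 for C1ql2, 22 for Dsp and 20 for Prox1, where the median of 32851 RefSeq promoters of the same length was 6. The other members with a window at their first RefSeq start held 27 (Dock10), 16 (Plk5) and 12 (Trpc6), so a high number was not particular to the printed genes. Of those promoters, 82.1% held fewer CG than C1ql2 or Prox1 and 85.2% fewer than Dsp. The corresponding window of Tdo2, whose sequence overlaps an annotated exon and is not printed, held 3. On both strands, the letters GGGCGG, which contain a CG, occurred 4 times for Dsp, 2 times for Prox1 and 0 times for C1ql2, and 32.7% of all promoters held them. TATAAA occurred once for Prox1 and not in the windows of C1ql2 and Dsp, against 12.4% of promoters with a match. CANNTG, the E-box pattern, which reads the same on both strands, occurred 2 times for Prox1, 1 time for C1ql2 and 0 times for Dsp, against 66.2% of promoters. CCAAT was in none of the 3 windows and in 33.8% of all promoters. Prox1 has a second RefSeq start, inside the gene, whose window is not printed. That window held 11 CG, 1 GGGCGG, 0 TATAAA, 0 CANNTG and 0 CCAAT. Of 42 assembled Prox1 transcripts with more than 1 exon, 25 began within 500 bases of the first start and 0 within 500 of the second. RefSeq promoters were matched for 7 of the 8 members, all but Calb1.

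With TAK-418, C1ql2, Dsp, Prox1 and Tdo2 were higher in both genotypes, by log2 changes of 0.14 to 0.47, while Calb1, Trpc6, Dock10 and Plk5 each had a change above 0 in one genotype and below 0 in the other, between -0.14 and 0.15. None of the 8 passed limma at a Benjamini-Hochberg adjusted p under 0.05 over the 16537 genes tested. Few genes of any kind did: 0.0121% for TAK-418 against vehicle averaged over genotypes, 0% in wild types and 0.00605% in mutants. At an unadjusted p under 0.05, 4 of 8 members were higher averaged over genotypes, where 4.82% of all genes were higher and 8.29% passed in either direction. In wild types the count was 4 of 8, all higher, against 8.45% of genes in either direction, and in mutants 2 of 8, both higher, against 4.4%. The median log2 change of the 8 members averaged over genotypes was 0.14, against -0.00019 for all genes tested. Of the 8 members 7 lay above 0, as did 49.9% of all genes. Because the members were chosen with earlier results of these data known, these shares describe the members and are not a test of the set. In whole hippocampus, more granule cells and more RNA per granule cell cannot be told apart.

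C1ql2 encodes a secreted C1q-like protein that granule cells release at their mossy fibre synapses. Its scaled abundance was 52.2, 49.5 and 54.5 in vehicle wild types and 61.2, 62.0, 69.9, 60.8 and 61.1 in treated wild types. It was 54.6, 50.9 and 57.6 in vehicle mutants and 61.6, 58.6 and 62.2 in treated mutants. All 8 treated libraries lay above all 6 vehicle libraries, which held for 1 of the 8 members and for 0.139% of all genes tested. The treated libraries were higher by a log2 change of 0.21 ± 0.042 (SE, 95% interval 0.12 to 0.31) averaged over genotypes, with a limma p of 0.00026 and an adjusted p of 0.227. Only 0.103% of genes had a smaller p. An exact two-sided permutation test of the pooled libraries gave p = 0.00033, the smallest that 3003 arrangements can give. The change was 0.27 ± 0.056 in wild types (exact permutation p = 0.0179, the smallest that 5 against 3 allows) and 0.16 ± 0.062 in mutants (exact permutation p = 0.1, the smallest that 3 against 3 allows). Without the 2 libraries high in choroid plexus genes the averaged change was 0.23 (limma adjusted p = 0.329).

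Dsp encodes desmoplakin, which in epithelia and heart muscle ties desmosomes to intermediate filaments and in the hippocampus is a marker of granule cells. It read 13.3, 10.2 and 10.1 in vehicle wild types and 14.9, 17.1, 15.5, 16.9 and 14.5 in treated wild types. In mutants it read 14.5, 14.3 and 11.6 with vehicle and 15.9, 16.6 and 15.1 with TAK-418. The treated libraries lay above the vehicle libraries in each genotype, but the highest vehicle mutant was level with the lowest treated wild type, at 14.5. The change in wild types was the largest of any member, 0.47 ± 0.099 (limma adjusted p = 0.187, exact permutation p = 0.0179). In mutants it was 0.23 ± 0.11 (limma adjusted p = 1, exact permutation p = 0.1). Averaged over genotypes it was 0.35 ± 0.074 (limma adjusted p = 0.227), and 0.34 without the 2 libraries high in choroid plexus genes (adjusted p = 0.44). C1ql2 and Dsp were the 2 members whose treated and vehicle libraries did not overlap within either genotype, a pattern held by 0.32% of all genes.

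Prox1 was 30.2, 30.6 and 30.1 in vehicle wild types, a narrow set, and 35.2, 43.3, 33.7, 38.7 and 33.5 in treated wild types. In mutants it was 31.0, 32.6 and 36.1 with vehicle and 39.5, 34.1 and 36.8 with TAK-418. The wild-type groups did not overlap, as for 3 of 8 members and 3.95% of all genes, and the mutant groups did; in mutants 2 of 8 members and 4.55% of genes were higher without overlap. The log2 change was 0.27 ± 0.083 in wild types (limma adjusted p = 0.404, exact permutation p = 0.0357) and 0.14 ± 0.093 in mutants (adjusted p = 1, exact permutation p = 0.2). The value in mutants turned to -0.25 when only the most abundant transcript of each gene was kept. Averaged over genotypes the change was 0.21 ± 0.062 (limma adjusted p = 0.421), and 0.18 without the 2 libraries high in choroid plexus genes. Lyve1 and Pdpn, markers of lymphatic vessels, which also express Prox1, summed to 6.70 to 9.37 over all libraries. The highest sum was in mutant vehicle replicate 1, one of the libraries high in choroid plexus genes. Most of the sum was Pdpn, with group means of 6.89 to 8.14. Lyve1, a low gene, was 0 in the vehicle wild types. Its mean was 0.465 in treated wild types, 0.590 in vehicle mutants and 0.567 in treated mutants. A share of lymphatic cells in the Prox1 differences was not tested.

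Tdo2 encodes tryptophan 2,3-dioxygenase, which opens the kynurenine pathway of tryptophan breakdown, and had the lowest level per length of the 8. Vehicle wild types read 8.54, 6.87 and 7.38 and treated wild types 9.66, 8.89, 8.44, 8.55 and 9.15. Vehicle mutants read 6.69, 5.53 and 6.28 and treated mutants 8.38, 7.55 and 6.61. Treated and vehicle libraries overlapped by 1 library in each genotype. The log2 change was 0.22 ± 0.088 in wild types (limma adjusted p = 0.526, exact permutation p = 0.0357) and 0.25 ± 0.098 in mutants (adjusted p = 1, exact permutation p = 0.2). Averaged over genotypes it was 0.23 ± 0.066 (limma adjusted p = 0.399), and 0.25 without the 2 libraries high in choroid plexus genes. Alb and Apoa1, markers of liver, the other main source of Tdo2 RNA, summed to at most 0.247 in any library.

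**Figure D1:**
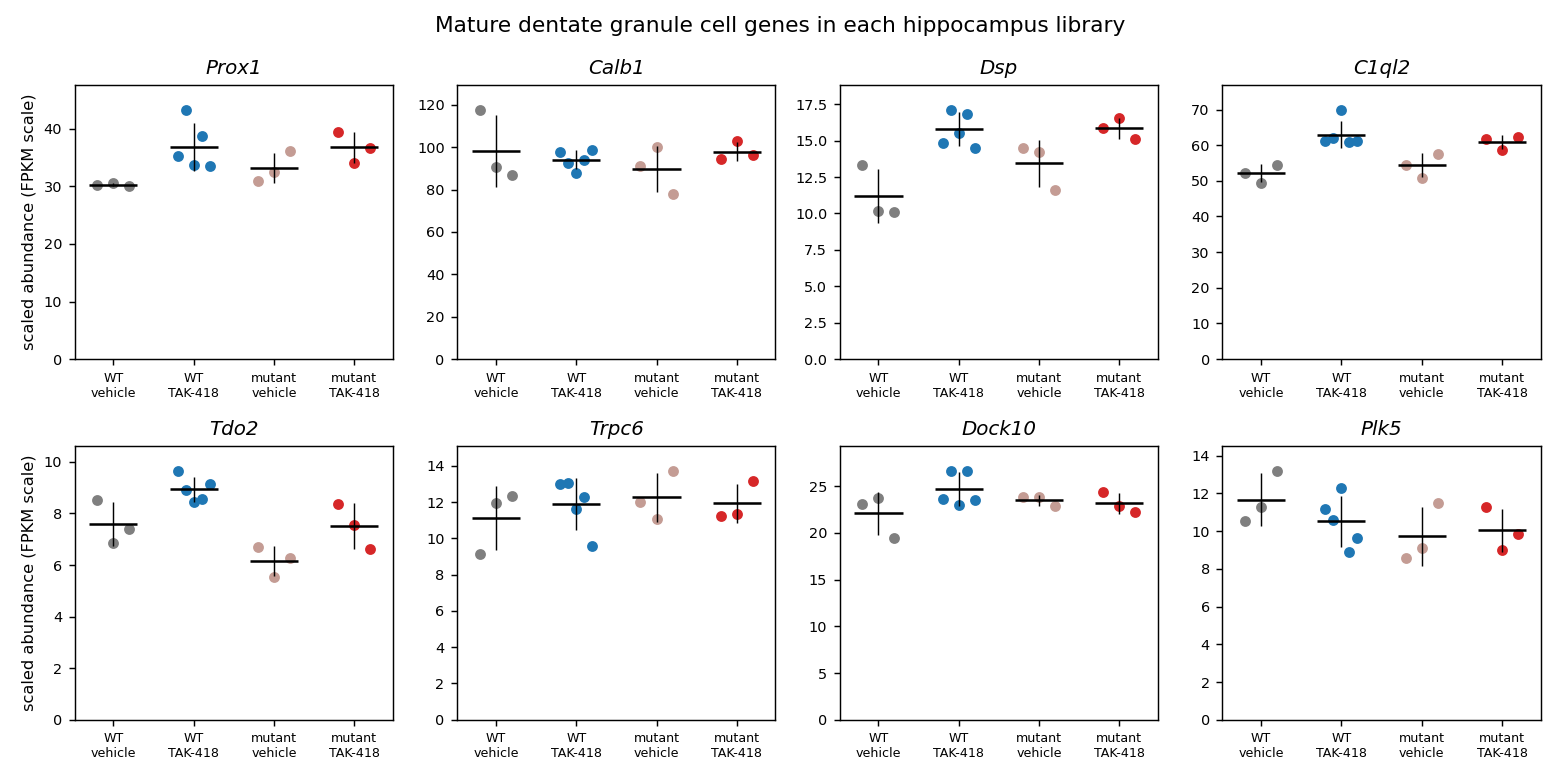
Scaled abundance (FPKM scale, axis from 0) of the 8 genes in each of the 14 libraries; points are libraries, the horizontal bar is the group mean and the vertical line 1 SD. The C1ql2 panel shows treated libraries from 58.6 to 69.9 above vehicle libraries from 49.5 to 57.6, while the Calb1, Trpc6, Dock10 and Plk5 panels show overlapping groups.

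Calb1 encodes calbindin, the calcium buffer that fills mature granule cells and is also made by other hippocampal neurons. It had the highest scaled abundance of the 8, a rank that the authors' deposited FPKM values share in vehicle wild types only. There C1ql2 was listed at 38.3 and Calb1 at 39.9. In treated wild types the authors' deposited values were 46.7 for C1ql2 and 38.8 for Calb1, and C1ql2 was also the higher in both mutant groups. In scaled abundance, Calb1 ranged from 86.8 to 118 in vehicle wild types and from 87.6 to 98.6 in treated wild types. It ranged from 78.0 to 99.9 in vehicle mutants and from 94.5 to 103 in treated mutants. Its averaged TAK-418 change was 0.04 ± 0.074 (95% interval -0.12 to 0.20), and 0.0068 without the 2 libraries high in choroid plexus genes. Wild type vehicle replicate 1, at 118, stood above the other 13 libraries.

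Trpc6, a cation channel opened by diacylglycerol, ranged from 9.12 to 13.7 over all libraries, and its averaged change was 0.03 ± 0.088 (95% interval -0.17 to 0.22). Dock10 ranged from 19.5 to 26.6, with an averaged change of 0.07 ± 0.053 (95% interval -0.05 to 0.18). Its 2 highest libraries, at 26.6 each, were both treated wild types. Plk5, a brain-expressed member of the polo-like kinase family, ranged from 8.57 to 13.2, with an averaged change of -0.05 ± 0.09 (95% interval -0.24 to 0.15). Without the 2 libraries high in choroid plexus genes, the averaged changes were 0.06 for Trpc6, 0.03 for Dock10 and -0.04 for Plk5. In wild types alone, Dock10 was higher by 0.15 ± 0.071 (limma adjusted p = 0.589, exact permutation p = 0.214).

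Between genotypes, Tdo2 was the member that stood apart: it was lower in mutants than in wild types in both treatments. The vehicle groups did not overlap (5.53 to 6.69 in mutants, 6.87 to 8.54 in wild types), and neither did the treated groups (6.61 to 8.38 and 8.44 to 9.66). Tdo2 was the only member with mutants below wild types without overlap in either treatment, and among all genes tested this held for 4.51% with vehicle and 2.39% with TAK-418. The share of genes with this pattern in both treatments at once was not computed. The log2 change was -0.26 ± 0.098 under vehicle (limma adjusted p = 0.814, exact permutation p = 0.1) and -0.23 ± 0.088 under TAK-418 (limma adjusted p = 0.925, exact permutation p = 0.0179). Averaged over treatments it was -0.25 ± 0.066, with a limma p of 0.0028 and an adjusted p of 0.604; 0.441% of genes had a smaller p. The mean of treated mutants, 7.51 ± 0.888 (SD, n = 3), differed from that of vehicle wild types, 7.60 ± 0.854 (n = 3), by less than either SD.

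Dsp and Prox1 read higher in vehicle mutants than in vehicle wild types, by 0.25 ± 0.11 (limma adjusted p = 0.886) and 0.13 ± 0.093 (adjusted p = 0.999). The Prox1 groups did not overlap (31.0 to 36.1 in mutants, 30.1 to 30.6 in wild types; exact permutation p = 0.1), whereas those of Dsp did. Vehicle mutants lay above vehicle wild types without overlap for 1 of 8 members and 4.4% of all genes. Plk5 read lower in vehicle mutants by -0.25 ± 0.13 (adjusted p = 0.927). Without the 2 libraries high in choroid plexus genes, the Dsp change was 0.13 and the Plk5 change -0.08. Over all 28 alternative runs, that one included, the change under vehicle was 0.04 to 0.48 for Prox1 and -0.34 to -0.13 for Tdo2. No member passed the adjusted threshold in any genotype comparison by limma, where 0% of genes passed under vehicle, 0.0121% under TAK-418 and 0.00605% averaged over treatments. At an unadjusted p under 0.05, 2 of 8 members passed under vehicle (Tdo2 lower, Dsp higher) against 5.44% of genes. Under TAK-418 only Tdo2 passed, against 4.96% of genes, and averaged over treatments only Tdo2 passed, against 5.85%.

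**Figure D2:**
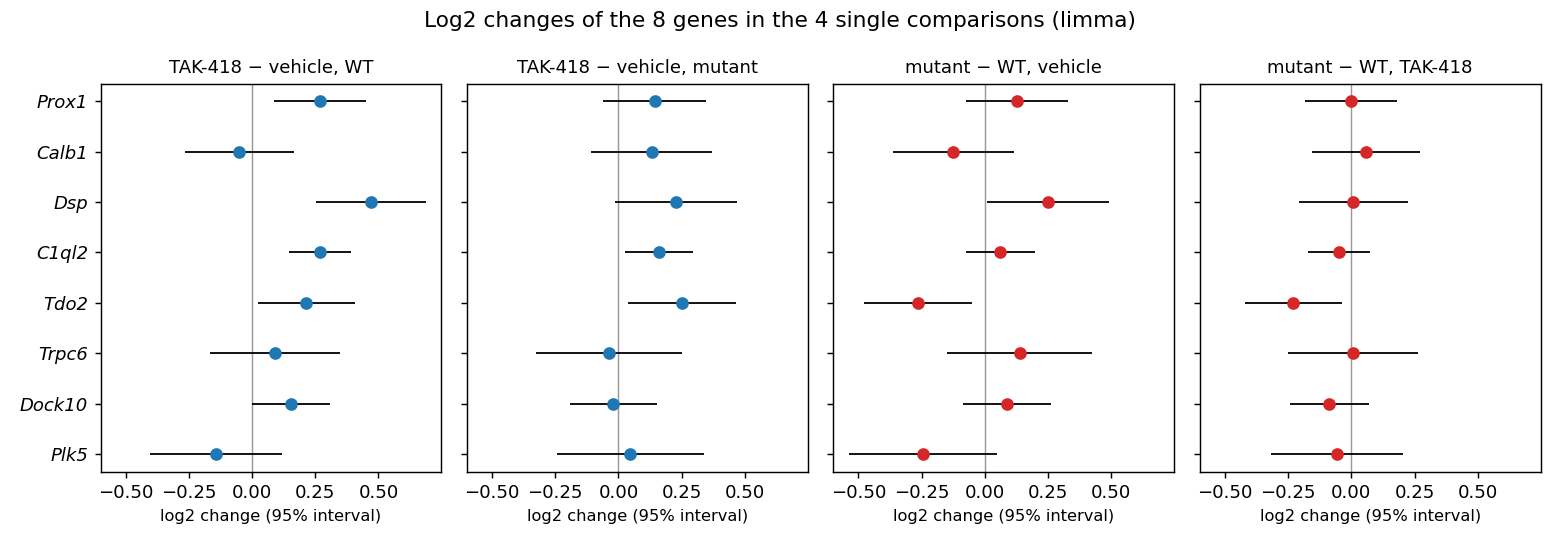
Log2 change of each of the 8 genes (x axis, on the log2 of scaled abundance plus 0.9) with its 95% interval from limma, for TAK-418 minus vehicle in each genotype and mutant minus wild type in each treatment. Intervals of Prox1, Dsp, C1ql2 and Tdo2 lie above 0 in wild types given TAK-418, and those of Tdo2 lie below 0 in both genotype panels.

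The genotype by drug interaction asks whether the TAK-418 change differed between mutants and wild types. It passed for 0 of 8 members by limma at an adjusted p under 0.05 (0.00605% of all genes passed) and for 0 of 8 at an unadjusted p under 0.05 (4.44% of genes). The largest in size was that of Dsp, with a change smaller by 0.24 in mutants (log2 difference -0.24 ± 0.15, 95% interval -0.57 to 0.08, limma adjusted p = 0.976). It was -0.12 without the 2 libraries high in choroid plexus genes. A difference between genotypes in the response to TAK-418 was therefore not detectable for these genes with 3 to 5 libraries a group.

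The authors' deposited tables of group comparisons, with FPKM values per group and q-values, hold all 8 members in each of 4 comparisons. Dsp was the only member with a q under 0.05 in any of them: the authors' deposited table lists it at 7.55 in vehicle wild types and 10.9 in treated mutants, a log2 change of 0.53 (p = 5e-05, q = 0.0185). Of the loci tested there, 0.324% had a q under 0.05. The authors' deposited tables called 0 of 8 members in the other 3 comparisons, where 0.224% of loci passed for vehicle mutants against vehicle wild types, 0.218% for treated mutants against treated wild types and 0.611% for vehicle mutants against treated wild types. For Tdo2, the authors' deposited tables list mutants on vehicle at 4.42 and wild types on vehicle at 6.45 (log2 -0.54, p = 0.0579, q = 1). In the comparison with treated wild types, the authors' deposited table lists Tdo2 at 6.63 and vehicle mutants at 4.43 (p = 0.00485, q = 0.381). For treated mutants the authors' deposited table lists Tdo2 at 6.34, close to 6.68 in treated wild types (log2 -0.07, p = 0.668), a smaller difference than the -0.23 found over the libraries. For C1ql2 the authors' deposited tables list 38.3 in vehicle wild types and 46.0 in treated mutants (p = 0.0176, q = 0.552). For Prox1, they list 24.6 and 29.6 for the same groups in the authors' deposited table (p = 0.0194, q = 0.602). The comparisons share groups, so these rows are not independent of each other. No table compares treated with vehicle mice of the same genotype.

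The transcripts assembled per library show which forms of the genes these levels rest on. C1ql2 (2 exons), Calb1 (11 exons) and Tdo2 (12 exons) were each carried by 1 annotated splice structure in all 14 libraries, which held 100% of the abundance of Calb1 and of Tdo2. Prox1 was mostly the 5-exon structure of ENSMUST00000175916.7, with 72.6% of its abundance, assembled in 11 of 14 libraries. Trpc6 was split between its annotated 13-exon structure (50.8%) and a 10-exon structure absent from the annotation that began inside the gene (32.3%), and the former was assembled in 10 of 14 libraries. Dock10 was assembled in 41 structures, 6 to 13 in a library, and 4.84% of its abundance lay in an annotated splice structure.

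Dsp was assembled in all 14 libraries as 2 annotated 24-exon structures. The longer, ENSMUST00000124830.2, held 57.1% of the abundance and the shorter, ENSMUST00000127906.7, held 39.3%; in the assembled transcripts they spanned up to 9400 and 7603 bases. Desmoplakin is known in a long and a short form, which share both ends and differ in the length of the central part. The longer form read 7.48, 5.49 and 6.39 in vehicle wild types and 8.63, 11.6, 9.17, 9.48 and 7.69 in treated wild types. It read 7.30, 8.16 and 7.24 in vehicle mutants and 8.22, 9.25 and 8.28 in treated mutants. Treated libraries were thus above vehicle libraries in each genotype, but by little at the closest: 7.69 against 7.48 in wild types and 8.22 against 8.16 in mutants. The shorter form read 3.84 to 5.88 in vehicle mutants and 6.39 to 7.34 in treated mutants, without overlap. In wild types it read 3.25 to 5.85 with vehicle and 5.54 to 6.47 with TAK-418, with overlap. These are descriptions, since no test of single structures was made and the share of all structures without overlap was not computed.

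Plk5 was split between an annotated 15-exon structure (53.8%) and a 12-exon structure absent from the annotation (42.8%), which began 2018 to 2193 bases downstream of the annotated start. In treated wild types the 12-exon structure held 44.1% to 64.6% of Plk5 abundance in a library, and in vehicle wild types 34.0% to 41.1%. It held 36.5% to 45.4% in treated mutants and 34.7% to 39.1% in vehicle mutants. The highest shares in treated wild types were in replicate 2 (64.6%) and in replicate 1 (55.3%), the library of greatest depth. The wild-type groups did not overlap in this share and the mutant groups did. How many genes of any kind have such a pattern was not computed, and the difference was not tested.

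**Figure D3:**
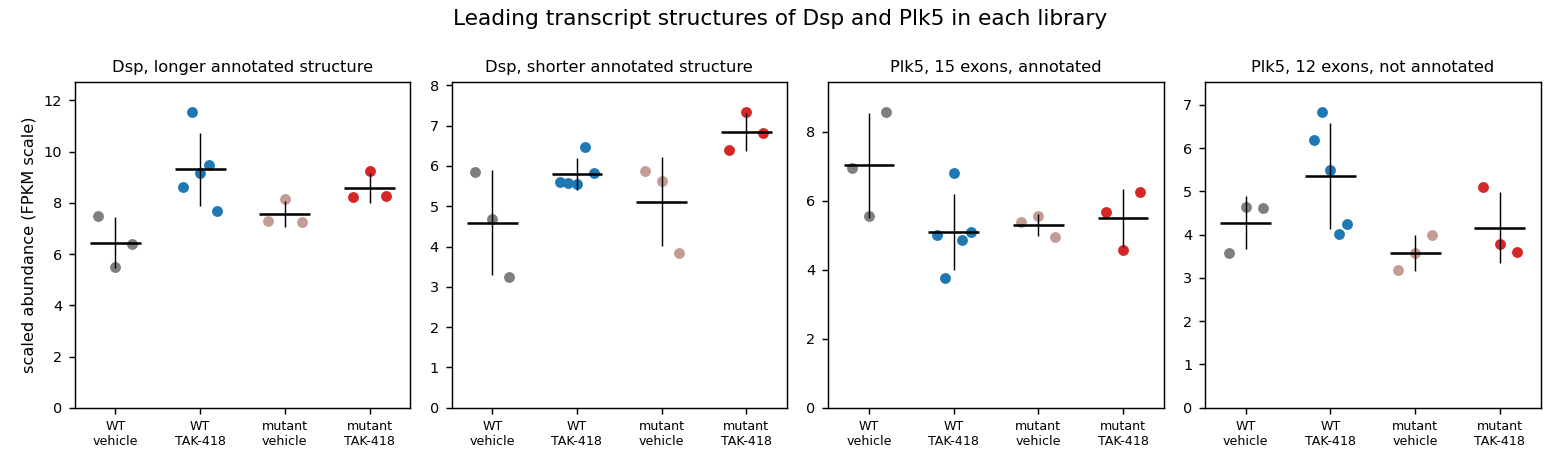
Scaled abundance (FPKM scale, axis from 0) of the 2 leading transcript structures of Dsp and of Plk5 in each library; points are libraries, bars the group mean and lines 1 SD. The longer Dsp form reads 7.69 to 11.6 in treated wild types against 5.49 to 7.48 with vehicle. In mutants it reads 8.22 to 9.25 with TAK-418 against 7.24 to 8.16 with vehicle.

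Other genes of the granule lineage, taken from lists chosen with earlier results of these data known, are given beside the members. Of 17 other dentate granule genes, all tested, 12 lay above 0 with TAK-418 averaged over genotypes and 3 had an unadjusted limma p under 0.05, all higher, with a median log2 change of 0.04. The highest were Sipa1l2 (0.20 ± 0.058) and Neurod2 (0.13 ± 0.06), and the lowest Maml2 (-0.29 ± 0.41) and Pdzd2 (-0.24 ± 0.16). Of 6 newborn granule neuron genes, 5 lay above 0 and 3 had an unadjusted p under 0.05, all higher: Calb2 (0.26 ± 0.067), Igfbpl1 (0.31 ± 0.11) and Dcx (0.18 ± 0.072), named here after their values were seen. At that threshold, 4.82% of all genes tested were higher, and 49.9% of all genes lay above 0. Sox11 was the gene below 0 (-0.34), with low group means, from 0 to 0.50. The median of the 6 newborn granule neuron genes was 0.14, the same as that of the mature members. None of these 23 genes passed at an adjusted p under 0.05. The 5 CA1 genes had a median of -0.07, the 4 CA2 genes -0.10 and the 5 CA3 genes -0.06. At an unadjusted p under 0.05, 2 of the 5 CA3 genes were higher, 1 of the 5 CA1 genes was lower, and 0 of the 4 CA2 genes passed. In vehicle mutants against vehicle wild types, 16 of 17 other dentate granule genes lay above 0, with a median of 0.09, against 5 of 8 members with a median of 0.07. CA3 genes also read higher there, 5 of 5 above 0 with a median of 0.22, and their summed level was 145 to 147 in vehicle mutants and 120 to 129 in vehicle wild types. The part that dissection or cell makeup plays in any of these differences was not tested.

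**Figure D4:**
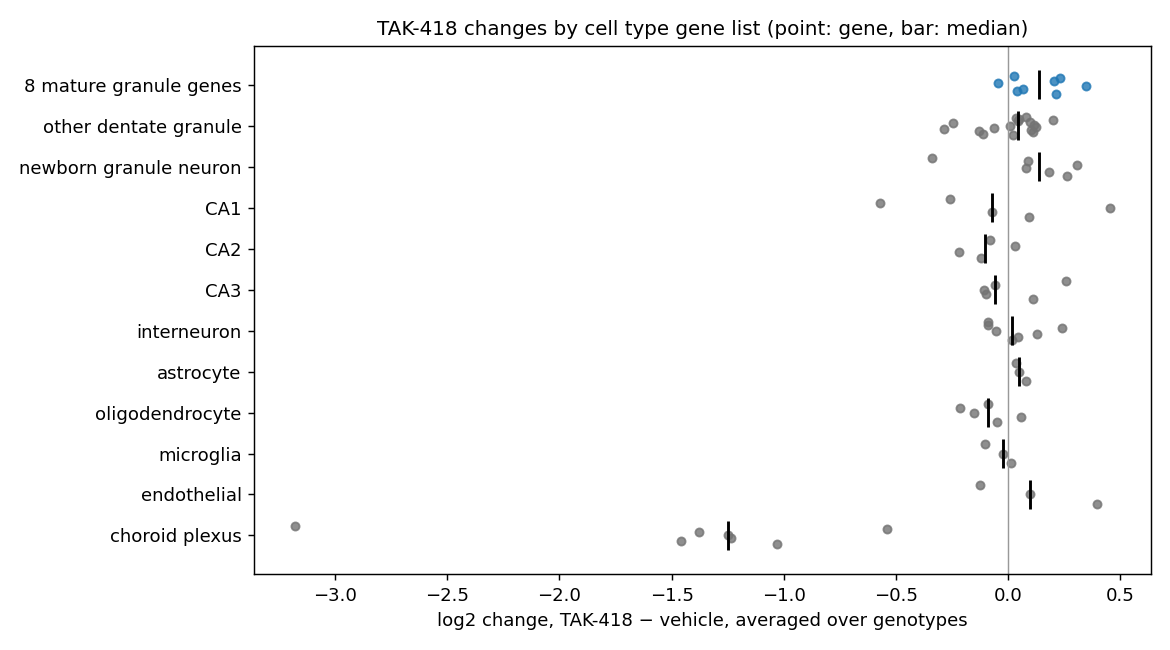
Log2 change for TAK-418 minus vehicle averaged over genotypes (x axis) of each gene in 12 cell type lists; points are genes and bars list medians. The 8 mature granule genes lie between -0.05 and 0.35, and the choroid plexus list has a median of -1.25, with its 2 high libraries both in the vehicle groups.

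Across the 14 libraries, the members did not move as 1 block. Of 28 member pairs, 19 had a Pearson r above 0 (median 0.20), and 0 pairs passed a permutation test of r at a Benjamini-Hochberg adjusted p under 0.05, against 8 at an unadjusted p under 0.05. Prox1 with Dsp had r = 0.65 (permutation p = 0.0119, adjusted 0.0853) and Spearman's rho = 0.78 (permutation p = 0.00157, adjusted 0.044), and r = 0.58 without the 2 libraries farthest from the Prox1 median. Within groups, on deviations from the 4 group means, its r was 0.07. C1ql2 with Prox1 went from 0.62 to -0.02 in the same way, and C1ql2 with Dsp from 0.63 to -0.28. Calb1 with Trpc6 ran the other way: r was -0.71 (permutation p = 0.0041, adjusted 0.0853; rho = -0.60, permutation p = 0.026) and -0.72 within groups, and was -0.31 without the 2 libraries farthest from the Calb1 median. Prox1 with Dock10 kept an r of 0.54 within groups, from 0.64 across all libraries (adjusted p = 0.0853). Over all pairs the median r within groups was 0.04. The points share libraries, depth and the library factor.

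**Figure D5:**
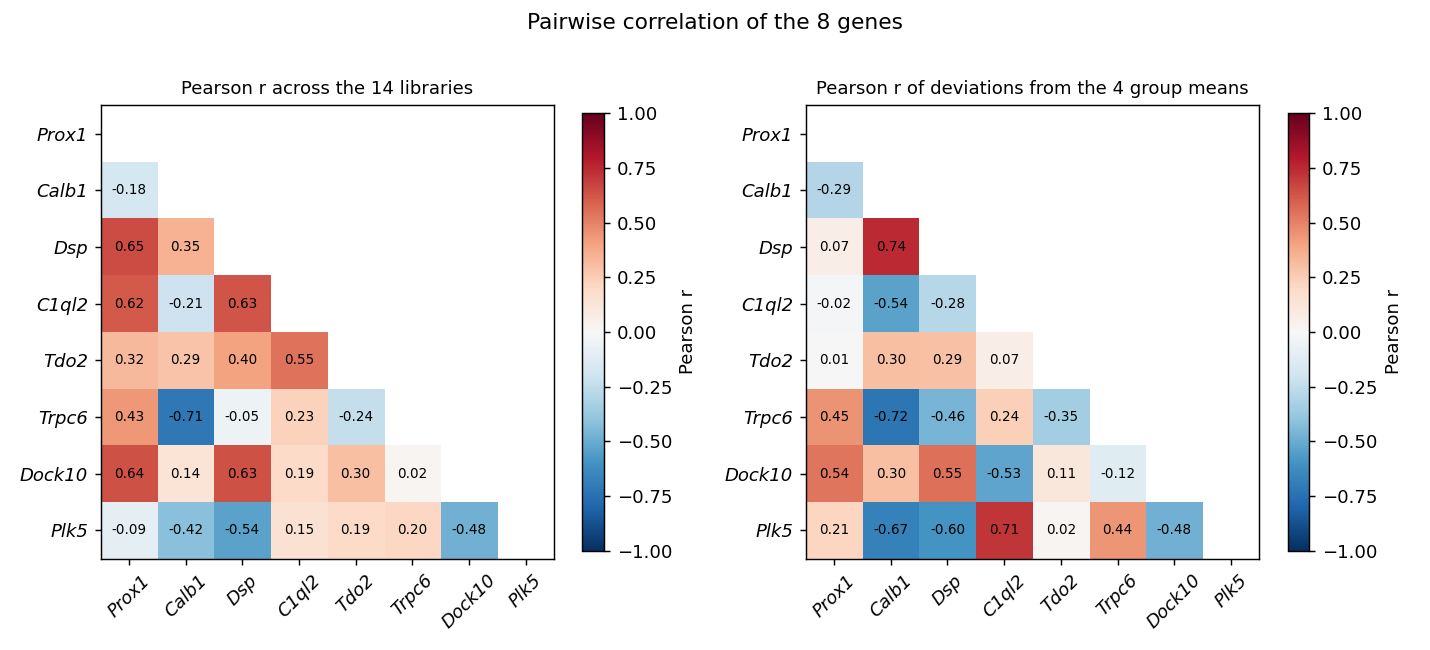
Pearson r of each pair of the 8 genes, coloured from -1 to 1, across the 14 libraries on the left and on deviations from the 4 group means on the right. The positive values joining Prox1, Dsp and C1ql2 on the left (0.62 to 0.65) are -0.28 to 0.07 on the right.

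Genes whose log2 levels most resembled the mean standardised profile of the 8 members over the 14 libraries were Mgat5b (r = 0.90), Sufu (0.88), Nrros (0.88), Tcf20 (0.88) and Pgbd5 (0.87), of 13265 genes compared; the 99th percentile of r was 0.73. Mgat5b, a glycosyltransferase gene of brain, averaged 15.7 in vehicle wild types, 15.8 in vehicle mutants, 18.2 in treated wild types and 17.5 in treated mutants. Sufu, a repressor of Hedgehog signalling, averaged 5.78, 5.85, 6.44 and 6.29 in the same order of groups. These correlations describe the libraries and were not tested.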

How the data were processed

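RNA-seq of 14 mouse hippocampus libraries was used. Reads were aligned with TopHat2 2.1.0 to mm10, and FastQC was run, per the submitters' processing notes. CLASS 2.1.7 assembled the transcripts of each library, as the headers record; the score the authors deposited for each transcript is its abundance, read here as FPKM-like. The authors' deposited tables give group FPKM, log2 fold changes, p-values and q-values per locus; which value column is which group was read from the table names, and log2 differences of libraries correlated with theirs in all 4 tables (r = 0.24 to 0.42).

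Transcripts were assigned to GENCODE M21 genes by shared introns (single-exon transcripts by at least 50% exon overlap) and summed, and libraries were scaled by the median ratio over 13273 genes with a value in every library. The log2 of scaled abundance plus 0.9 was fitted with limma 3.58.1 (R 4.3.3) on 4 group means with a mean-variance trend, over 16537 genes above 0 in at least 3 libraries. Changes are on that scale, which understates those of low genes. The step was tested on simulated data with planted changes larger than any found for the members. That run does not show how well changes of the members' size are recovered. Exact permutation tests, two-sided and unadjusted, were made for 8 members in 6 comparisons (48 tests, 10 with p under 0.05), and 28 pairs were correlated with 100000 permutations each. Of the RefSeq promoters checked, 75.3% ended inside the start of a GENCODE transcript of their gene and 0% did so when reversed. The 8 members are always named; of the other dentate granule genes the 2 highest and 2 lowest are named, and 5 genes by likeness. Members and lists were chosen with earlier results of these data known. Other pseudocounts, filters, scalings, transcript rules, models and each left-out library were tried.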

Additional observations from a re-analysis of the deposited data

Results flagged for a closer look

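C1ql2 in wild type TAK-418 replicate 3 was 69.9, above the other 4 libraries of that group (60.8 to 62.0) by 0.872 of the group's range, past Dixon's value of 0.71 for 5 libraries. It was the only one of 8 members marked in this group, the only one large enough to screen, and chance marks about 1 in 20. No interaction of genotype and drug passed its test for any member.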

How the results depend on the processing

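No member passed an adjusted p of 0.05 by limma in any of the 7 comparisons under any alternative run; the smallest adjusted p was 0.128. The averaged TAK-418 change stayed above 0 in all 27 alternatives for C1ql2 (0.19 to 0.24, adjusted p 0.128 to 0.67), Dsp (0.22 to 0.41, adjusted p 0.157 to 0.477), Prox1 (0.17 to 0.24) and Tdo2 (0.12 to 0.27), and the averaged genotype change of Tdo2 stayed below 0 (-0.33 to -0.12). Over 56 member-by-comparison values, 69 of 1544 alternative values took the other sign, touching 24 of the 56, each 0.14 or less in size. Among those printed, Prox1 in mutants was -0.25 with the most abundant transcript only, and Trpc6 averaged over genotypes was -0.0097 with abundance weighted by length. Leaving out 1 library gave averaged TAK-418 changes of -0.036 to 0.067 for Trpc6, -0.0066 to 0.11 for Calb1 and -0.086 to 0.011 for Plk5. Member pairs passing an adjusted p of 0.05 numbered 2 without scaling, 3 on deviations from the group means and 0 to 1 when 1 library was left out (1 without wild type TAK-418 replicate 3), against 0 as reported; the cause was not tested. Chosen after seeing the data were 2 alternatives: Xist as a covariate, and leaving out the 2 libraries high in choroid plexus genes. No paired analysis was possible because the labels give no replicate numbers or shared litters. Group sizes of 3 limit single comparisons: an exact test of 3 against 3 cannot go below 0.1.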
